A study of Mus musculus with 10 samples.

Results

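The 10 genes described here encode proteins that neutrophils carry or that inflamed mucosa secretes: Ltf, Lcn2, S100a8, S100a9, Saa1, Saa3, Slpi, Wfdc2, Csf3r and Lrg1. They were chosen by gene name from a table of 16875 names with their values in these tumors already known, and Ltf was selected on its pattern in Villin-Wls cKO tumors 2 and 3. All 10 were in the table, and all 10 passed the filter applied before testing, an average of 0.5 FPKM or more. FPKM count fragments per length of transcript and per number of mapped fragments, so levels can be set side by side between genes.

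Messenger RNA had been sequenced from 10 colon tumors that were macrodissected from C57BL/6 mice after azoxymethane (AOM) and 3 cycles of 2% dextran sulfate sodium (DSS), 120 days after AOM. The mice were 6 to 10 weeks old at the start. The 5 control tumors carried the floxed Wls allele alone (Wls flox/flox). The 5 Villin-Wls cKO tumors carried the same allele with Villin-Cre ERT2 and had received 5 injections of tamoxifen at 80 mg/kg from day 30 before collection, so that Wls, the cargo receptor that Wnt proteins need for secretion, was deleted in intestinal epithelium and the tumor cells derived from it, and not in the neutrophils, macrophages or stroma of the same tumors. Controls are described as having no tamoxifen, and how many mice gave the tumors is not given in the sources used here, so n counts tumors and the tests measure the spread between tumors.

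Wls was between 61.3 and 79.9 FPKM in controls and between 2.03 and 11.7 FPKM in Villin-Wls cKO tumors. Xist was at most 0.420 FPKM in controls and at least 439 FPKM in Villin-Wls cKO tumors, and the Y-linked Eif2s3y was at least 30.4 FPKM in controls and at most 0.138 FPKM in Villin-Wls cKO tumors, so genotype, tamoxifen and sex cannot be told apart. Villin-Wls cKO tumors 2 and 3 stood apart from the other 8 by Krt5, a keratin of basal squamous epithelium, at 470 and 669 FPKM against at most 0.315 FPKM elsewhere. Results that rest on these 2 tumors are given with and without them. In whole tumors, fewer cells of a type and less RNA per cell cannot be told apart. Depth per tumor is unknown, since FPKM hold no read numbers.

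Neutrophils fill their granules in the bone marrow, and mature cells in tissue hold mainly the proteins, together with abundant messenger RNA for the calcium-binding pair S100a8 and S100a9 (calprotectin) and for surface receptors such as Csf3r, the receptor of granulocyte colony-stimulating factor, and Cxcr2, the receptor of CXC chemokines. Several granule proteins have a second source. Lactotransferrin (Ltf) binds iron and is also made by glandular epithelium, and lipocalin 2 (Lcn2) withholds iron by binding bacterial siderophores and is also made by inflamed gut epithelium. Serum amyloid A proteins (Saa1, Saa3) and leucine-rich alpha-2-glycoprotein (Lrg1) are acute-phase proteins that epithelium and myeloid cells make as well as liver. Slpi, a serine protease inhibitor that blocks neutrophil elastase, and Wfdc2 are secreted proteins with WAP domains and are made by epithelium. Slpi also stands on the list of neutrophil granule and cytosol proteins used here.

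Slpi and Lrg1 rose in Villin-Wls cKO tumors, by 2.59 ± 0.55 (SE) and 2.70 ± 0.72 on the log2(FPKM + 1) scale (n = 5 and 5 tumors), which is 6.03-fold and 6.50-fold. The other 7 members that were tested had positive changes of 0.18 to 1.39 that did not pass the threshold, a limma p under 0.05 after Benjamini-Hochberg adjustment over all 16757 genes tested. Thus 2 of 9 tested members were called higher, beside 6.12% of all genes, and none was called lower, since all 9 changes were positive, beside 4.75% of all genes. All 10 members were higher on average in Villin-Wls cKO tumors, with a median change of 1.33 against 0.01 over all genes. In 2 members, Slpi and Ltf, every Villin-Wls cKO tumor exceeded every control tumor, which held for 5.33% of all genes, while every Villin-Wls cKO tumor was below every control in 4.76% of all genes and in none of the members. Ltf was picked on such values, so that its place in these counts is a description. Among controls, tumor 3 was the highest for 7 of the 10 members, and among Villin-Wls cKO tumors, tumor 2 was the highest for 6.

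**Figure D1:**
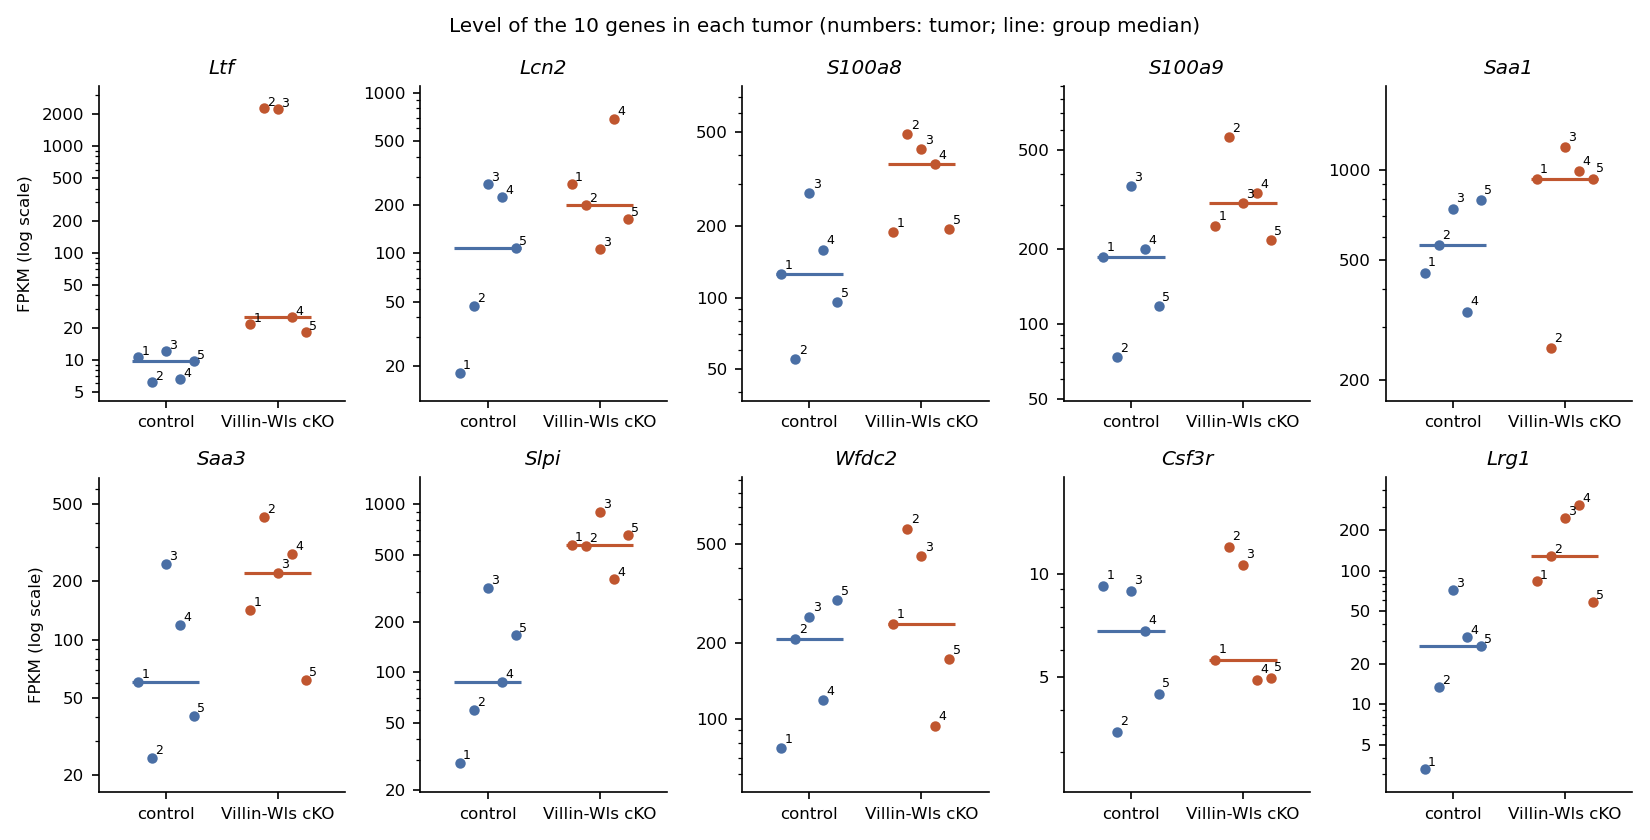
FPKM of the 10 genes (log axis, a separate range in each panel) in 5 control (blue) and 5 Villin-Wls cKO (orange) tumors. Points are tumors with their numbers and lines are group medians; the groups do not overlap for Ltf and Slpi, and Ltf reached 2278 and 2226 FPKM in Villin-Wls cKO tumors 2 and 3.

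Ltf was at 10.6, 6.17, 12.0, 6.55 and 9.64 FPKM in control tumors 1 to 5, and at 21.4, 2278, 2226, 24.9 and 18.0 FPKM in Villin-Wls cKO tumors 1 to 5. It was thus among the lowest members in controls, rank 9 of 10 by mean FPKM, and the highest member in tumors 2 and 3. The spread within the groups was 1.94-fold from lowest to highest among controls and 126-fold among Villin-Wls cKO tumors. The log2 change was 3.86 ± 1.44 (SE), and it is given without a test. Without Villin-Wls cKO tumors 2 and 3 it was 1.20, and the remaining 3 tumors, at 18.0 to 24.9 FPKM, were all above the highest control, tumor 3.

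The high ratios of Ltf to Cxcr2 in tumors 2 and 3 rest on the values that chose Ltf and are a description. Per FPKM of Cxcr2, Ltf stood at 3.40 to 7.33 in controls and at 8.17, 9.48 and 7.47 in Villin-Wls cKO tumors 1, 4 and 5, but at 416 and 665 in tumors 2 and 3. The genes nearest to Ltf over the 10 tumors were Pvrl1 (Pearson r = 0.99), which encodes nectin-1, Gm12349 (r = 0.99), Pi15 (r = 0.99), Adh7 (r = 0.98), an alcohol dehydrogenase of upper digestive epithelium, and Krt6b (r = 0.98), a squamous keratin. Krt6b was at 50.3 and 39.7 FPKM in Villin-Wls cKO tumors 2 and 3 and at no more than 0.136 FPKM elsewhere. These correlations share the same 2 high tumors. Over the other 8 tumors, where Krt5 was barely detected, Ltf and Krt5 had r = 0.50 against 0.98 over all 10. Ltf and Cxcr2 had 0.75 against 0.79, and Ltf and Csf3r had 0.01 against 0.69. Over the same 8 tumors, r of Ltf with neutrophil identity genes ran from -0.50 (Mmp9) to 0.93 (Stfa2l1). With the epithelial gene Epcam it was 0.93. The chemokine Ppbp, a ligand of Cxcr2 known from platelets, showed the same split at 223 and 225 FPKM in tumors 2 and 3 and at 0.972 to 13.96 FPKM in the other 8. What part squamous cells, gland cells or neutrophils had in the Ltf level was not tested.

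**Figure D2:**
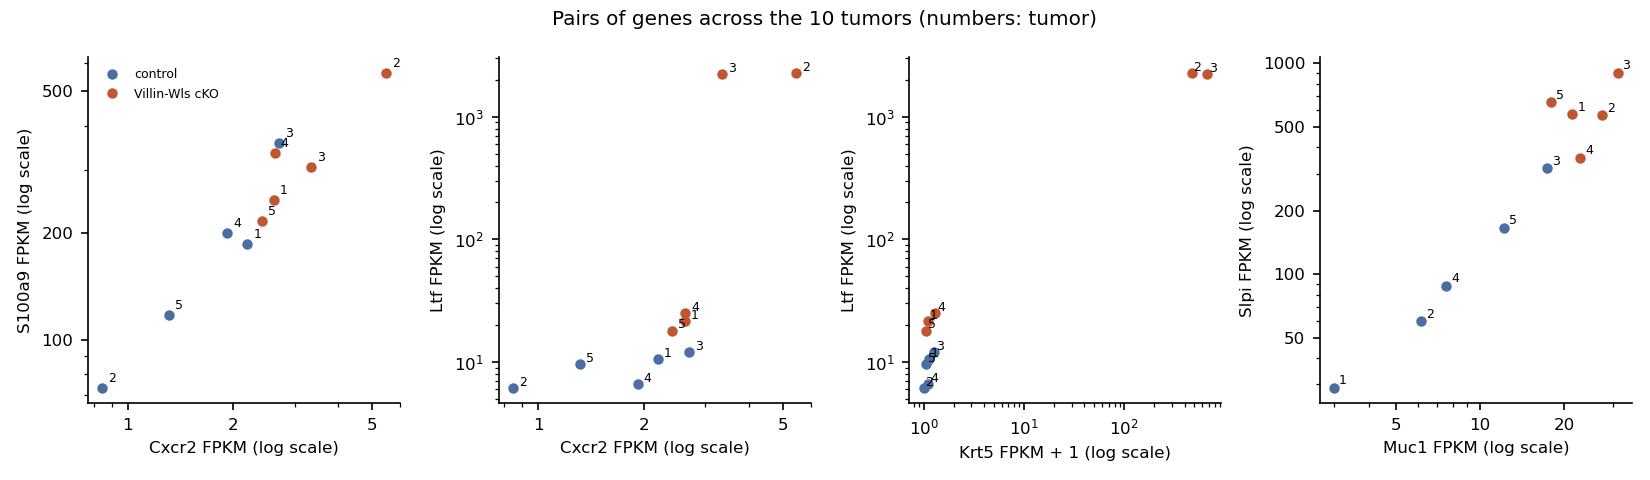
FPKM of gene pairs in each of the 10 tumors (both axes log; Krt5 as FPKM + 1; blue control, orange Villin-Wls cKO; numbers are tumors). S100a9 followed Cxcr2 in every tumor, Ltf was highest for its Cxcr2 level in Villin-Wls cKO tumors 2 and 3, where Krt5 was 470 and 669 FPKM, and Slpi followed the epithelial mucin Muc1.

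Lcn2 was at 18.1, 47.2, 271, 223 and 108 FPKM in controls and at 269, 200, 106, 689 and 163 FPKM in Villin-Wls cKO tumors. The groups overlapped, and only Villin-Wls cKO tumor 4 lay above the highest control. The change of 1.35 ± 0.74 had a limma adjusted p of 0.287 and an exact two-sided permutation p of 0.183 (n = 5 and 5 tumors). In contrast to Ltf, Lcn2 was within the control range in Villin-Wls cKO tumors 2 and 3. The correlation between these granule genes was r = 0.12 over the 10 tumors and 0.57 without those 2. Closest to Lcn2 were Spcs3 (r = 0.97), a subunit of the signal peptidase of the endoplasmic reticulum, 2700099C18Rik and Phgdh (r = 0.96 each), Gm7901 (r = 0.96) and Tmtc4 (r = 0.96). Among members it was nearest to Lrg1, with r = 0.82 over the 10 tumors and 0.97 without Villin-Wls cKO tumors 2 and 3.

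S100a8 was at 126, 55.1, 277, 160 and 95.9 FPKM in controls and at 189, 487, 422, 365 and 194 FPKM in Villin-Wls cKO tumors, with 3 of 5 Villin-Wls cKO tumors above every control. Its change of 1.30 ± 0.42 (limma adjusted p = 0.0773, exact permutation p = 0.0317, unadjusted) did not pass the threshold in all 10 tumors and passed it without control tumor 3 (1.59, adjusted p = 0.0262).

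S100a9 was at 186, 73.4, 357, 200 and 117 FPKM in controls and at 248, 564, 306, 335 and 216 FPKM in Villin-Wls cKO tumors, where only tumor 2 exceeded the highest control. Its change was 0.95 ± 0.40 (limma adjusted p = 0.161, exact permutation p = 0.0714), and 1.23 without control tumor 3 (adjusted p = 0.0493). Without Villin-Wls cKO tumors 2 and 3, the change was 0.93 for S100a8 and 0.68 for S100a9. From lowest to highest, both partners of calprotectin spanned 5.02-fold and 4.86-fold among controls. The group means differed 2.32-fold and 1.79-fold, a measure that cannot be weighed directly against a range.

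Csf3r marked the lowest level of the members, at 9.19, 3.43, 8.88, 6.78 and 4.44 FPKM in controls and at 5.58, 12.0, 10.6, 4.87 and 4.96 FPKM in Villin-Wls cKO tumors. The groups overlapped and the change was 0.18 ± 0.31, with a 95% interval from -0.51 to 0.86 (limma adjusted p = 0.778, exact permutation p = 0.611). It was -0.23 without Villin-Wls cKO tumors 2 and 3, the highest of all 10 tumors for this gene. Closest to Csf3r were Gprc5b (r = 0.95), the myeloid receptor gene Cd300ld (r = 0.94, with values identical to Cd300lf), Gm14005 (r = 0.92), 6430710C18Rik (r = 0.91) and Nrp1 (r = 0.91, with values identical to Mir1903).

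S100a9 and Cxcr2 kept close to 1 ratio in every tumor, with 84.5 to 132 FPKM of S100a9 per FPKM of Cxcr2 in controls and 89.5 to 127 in Villin-Wls cKO tumors. Their r was 0.96 over the 10 tumors, 0.96 without Villin-Wls cKO tumors 2 and 3 and 0.94 after the group means were removed. The other genes nearest to S100a9 were Retnlg (r = 0.98), a resistin-like protein of neutrophils whose values are identical to those of Retnla, S100a8 (r = 0.96), Saa3 (r = 0.96) and Mthfd2 (r = 0.96). S100a8 was nearest to S100a9, to Saa3 (r = 0.95), to Osmr (r = 0.95), the receptor subunit for oncostatin M, to Mthfd1 (r = 0.95) and to Ggta1 (r = 0.94). Csf3r was less like S100a9, with r = 0.74, and its ratio to Cxcr2 was 3.29 to 4.18 in controls and 1.85 to 3.17 in Villin-Wls cKO tumors, without overlap. That ratio was noticed after the values were seen and has no test.

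Saa3 was at 60.6, 24.5, 245, 120 and 40.3 FPKM in controls and at 142, 428, 222, 277 and 61.8 FPKM in Villin-Wls cKO tumors. The groups overlapped, and the change of 1.39 ± 0.65 missed the threshold (limma adjusted p = 0.213, exact permutation p = 0.0952). It was 0.92 without Villin-Wls cKO tumors 2 and 3 (adjusted p = 0.526). Saa3 varied across tumors with S100a9 and S100a8 more than with the other acute-phase members, at r = 0.96 and 0.95 against 0.76 for Lrg1 and -0.07 for Saa1. The genes nearest to it were Msn (r = 0.98), the cytoskeletal linker moesin, Gm20488 (r = 0.96, identical to Medag and BC028471), Osmr (r = 0.96), S100a9 and Fxyd5 (r = 0.96, identical to Mir7050 and Fxyd7).

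Saa1 had the highest mean of the members in controls, at 455, 560, 744, 337 and 795 FPKM, and was at 934, 255, 1191, 993 and 935 FPKM in Villin-Wls cKO tumors. Here 4 of 5 Villin-Wls cKO tumors lay above every control and tumor 2 lay below every control. The change over all tumors was 0.47 ± 0.41 (limma adjusted p = 0.519, exact permutation p = 0.341), and without Villin-Wls cKO tumor 2 it was 0.87 (adjusted p = 0.0499). The genes nearest to Saa1 were Dmbt1 (r = 0.97), a secreted mucosal scavenger protein, St6galnac6 (r = 0.94), Ces2e (r = 0.94), an intestinal carboxylesterase, Pdzd3 (r = 0.94) and Tgoln1 (r = 0.92). In Villin-Wls cKO tumor 2, Dmbt1 was 169 FPKM and Ces2e was 2.78 FPKM, against 770 and 26.6 FPKM in tumor 3. Saa1 has a near-identical neighbor, Saa2, so the division of reads between them is uncertain. Saa2 was given 0 to 0.507 FPKM in controls and 0.272 to 1.21 FPKM in Villin-Wls cKO tumors.

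Lrg1 was at 3.30, 13.5, 72.1, 31.9 and 27.3 FPKM in controls and at 82.9, 128, 248, 310 and 58.0 FPKM in Villin-Wls cKO tumors. Only tumor 5 of the Villin-Wls cKO group fell below the highest control, tumor 3. The change of 2.70 ± 0.72 had a limma adjusted p of 0.0376 and an exact permutation p of 0.0159. The call was kept without control tumor 3 (adjusted p = 0.0177) or Villin-Wls cKO tumor 5 (0.0386), and the adjusted p was between 0.0507 and 0.09 without any of the other 8, while the change stayed between 2.13 and 3.15. Without both Villin-Wls cKO tumors 2 and 3 it was 2.45 (adjusted p = 0.151). The genes nearest to Lrg1 were Cpne2 (r = 0.97), Manf (r = 0.97, identical to Rbm15b), Nupr1 (r = 0.96), Pfkfb3 (r = 0.96) and Xbp1 (r = 0.96), of which Manf and Xbp1 belong to the response to endoplasmic reticulum load.

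Slpi was at 29.0, 59.8, 318, 87.8 and 166 FPKM in controls and at 572, 567, 900, 357 and 652 FPKM in Villin-Wls cKO tumors. The groups did not overlap, with control tumor 3 and Villin-Wls cKO tumor 4 the closest to each other. The change of 2.59 ± 0.55 had a limma adjusted p of 0.0144 and an exact permutation p of 0.00794, the smallest that 252 arrangements of 5 against 5 tumors can give. Left out 1 at a time, no tumor ended the call (adjusted p between 0.00321 and 0.0397). Without both Villin-Wls cKO tumors 2 and 3 the change was 2.40 and the adjusted p 0.0791. Slpi shares all values with the microRNA gene Mir7678, which lies within it.

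The gene nearest to Slpi across the 10 tumors was Muc1, a mucin of the epithelial surface (r = 0.97), and several neutrophil genes also ran with Slpi. Muc1 itself rose by 1.46 ± 0.36 (limma adjusted p = 0.0259). Next by correlation with Slpi were Parp3 (r = 0.97), Tinagl1 (r = 0.96), Fgfbp1 (r = 0.96) and Arpc1b (r = 0.96). Between Slpi and Csf3r the correlation was r = 0.23. With Cxcr2 it was 0.64, or 0.22 after the group means were removed, where Muc1 kept 0.92. Among other neutrophil identity genes, the correlation with Slpi was 0.86 for Ly6g, 0.90 for Cd177, 0.81 for Ceacam10 and 0.68 for Retnlg, and after the group means were removed it was 0.79, 0.64, 0.24 and 0.42. Epcam, a marker of simple and glandular epithelium, was at 911 and 952 FPKM in Villin-Wls cKO tumors 2 and 3 and at 1167 to 1321 FPKM in the other 3. Per FPKM of Epcam, Slpi stood at 0.0278 to 0.313 in controls and at 0.286 to 0.946 in Villin-Wls cKO tumors. Tumors were bulk tissue, and the cells that made Slpi were not tested.

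Wfdc2, the other WAP protein, was at 76.3, 209, 256, 119 and 298 FPKM in controls and at 240, 574, 446, 93.9 and 173 FPKM in Villin-Wls cKO tumors. Villin-Wls cKO tumors 2 and 3 were the highest of all 10, and the other 3 lay within the control range. The change of 0.56 ± 0.52 missed the threshold (limma adjusted p = 0.559, exact permutation p = 0.373; 95% interval -0.60 to 1.71), and it was -0.12 without tumors 2 and 3. Closest to Wfdc2 were Wdr4 (r = 0.97), Mpdu1 (r = 0.94), Pak4 (r = 0.93), Usp43 (r = 0.92) and Foxn1 (r = 0.91).

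**Figure D3:**
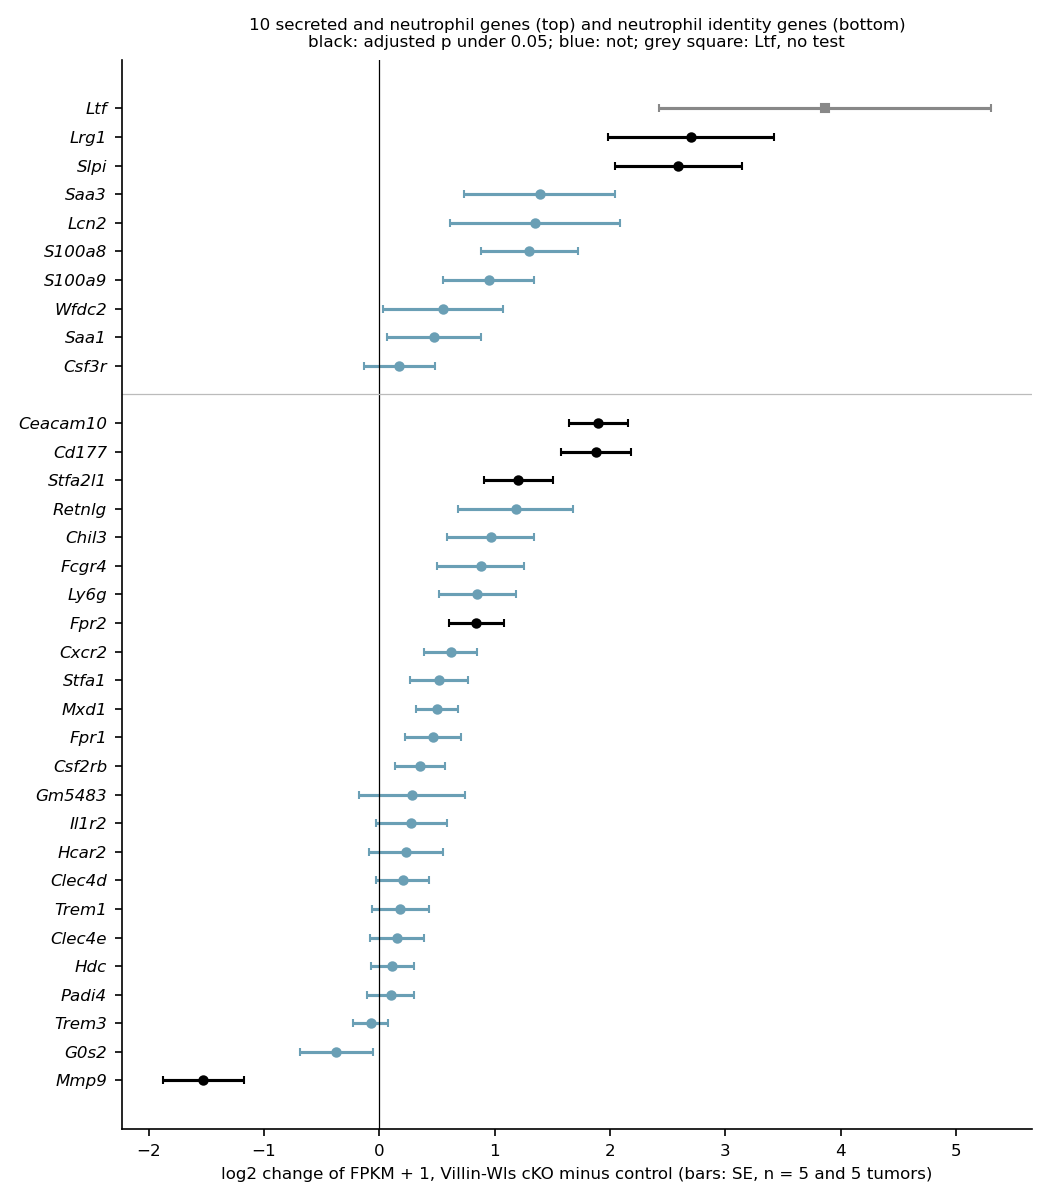
Log2 change of FPKM + 1 (Villin-Wls cKO minus control, bars are SE, n = 5 and 5 tumors) for the 10 genes above the line and tested neutrophil identity genes below it. Black marks an adjusted p under 0.05, blue did not pass and the grey square is Ltf, which has no test; Slpi and Lrg1 passed among members, and Ceacam10, Cd177, Stfa2l1, Fpr2 and Mmp9 below.

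On GRCm38, Ltf lies at chr9:111019271-111042767 on the plus strand, Lcn2 at chr2:32384633-32388252 on the minus strand, S100a8 at chr3:90668978-90670035 on the plus strand and S100a9 nearby at chr3:90692632-90695721 on the minus strand. Saa3 lies at chr7:46711998-46715700 and Saa1 at chr7:46740497-46742980, both on the minus strand, and Slpi (chr2:164354070-164389095, minus) and Wfdc2 (chr2:164562413-164568510, plus) share a cluster of WAP genes. Csf3r is at chr4:126024550-126044440 on the plus strand and Lrg1 at chr17:56119678-56122001 on the minus strand. Apart from Mir7678 inside Slpi, no other annotated gene overlaps a member.

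The promoters, 250 bases before to 50 after the start in RefSeq on GRCm38.p6, were found for all 10 members and searched on both strands for motifs of factors known from myeloid and acute-phase genes. The C/EBP letters TTGCNNAA were present in 6 of 10 (Ltf, Lcn2, S100a9, Saa1, Saa3 and Slpi), against 10.8% of 27025 promoters. The STAT letters TTCNNNGAA were in none against 8.47%, the NF-kB motif was in 1, Csf3r, against 8.18%, and the TATA letters TATAAA were in 3 (S100a8, S100a9 and Lrg1) against 14.2%. Motifs did not overlap each other. A match is a description of these letters, and the absence of one says nothing of the factor. The RefSeq start used for Slpi lies well inside the gene span given above (from GENCODE), not at its 5′ end. Shown here are the promoters of Ltf (chr9:111019042-111019341, plus), which left the other granule gene in 2 tumors, of S100a9 (chr3:90695672-90695971, minus) and Saa3 (chr7:46715627-46715926, minus), which varied together, and of Slpi (chr2:164356458-164356757, minus), whose groups did not overlap, each 5′ to 3′ with the C/EBP letters in capitals.
Ltf: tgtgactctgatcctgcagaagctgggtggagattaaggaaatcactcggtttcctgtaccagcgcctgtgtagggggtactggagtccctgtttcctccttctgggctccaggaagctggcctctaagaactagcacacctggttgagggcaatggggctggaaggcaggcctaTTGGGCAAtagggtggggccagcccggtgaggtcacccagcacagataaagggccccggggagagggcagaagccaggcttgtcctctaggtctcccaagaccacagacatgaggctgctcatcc
S100a9: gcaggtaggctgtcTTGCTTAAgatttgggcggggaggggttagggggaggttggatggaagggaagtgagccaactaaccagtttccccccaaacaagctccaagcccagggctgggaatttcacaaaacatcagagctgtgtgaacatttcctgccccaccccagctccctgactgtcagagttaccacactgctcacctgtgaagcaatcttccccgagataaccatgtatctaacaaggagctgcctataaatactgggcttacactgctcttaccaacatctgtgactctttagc
Saa3: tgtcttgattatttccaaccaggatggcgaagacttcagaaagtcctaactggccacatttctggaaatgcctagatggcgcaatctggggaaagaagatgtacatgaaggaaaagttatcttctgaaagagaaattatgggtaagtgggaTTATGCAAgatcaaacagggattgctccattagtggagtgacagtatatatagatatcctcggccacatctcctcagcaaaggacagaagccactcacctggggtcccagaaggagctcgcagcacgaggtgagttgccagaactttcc
Slpi: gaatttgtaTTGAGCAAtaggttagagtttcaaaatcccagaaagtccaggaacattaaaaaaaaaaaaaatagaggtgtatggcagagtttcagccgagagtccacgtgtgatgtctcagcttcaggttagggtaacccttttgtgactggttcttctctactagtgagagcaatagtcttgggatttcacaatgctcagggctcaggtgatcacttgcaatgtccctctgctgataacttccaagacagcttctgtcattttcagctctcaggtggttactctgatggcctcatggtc

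On the neutrophil identity list, 25 genes besides Csf3r were tested, and 4 rose (16%) and 1 fell (4%), beside 6.12% and 4.75% of all genes. The median change was 0.47 against 0.01 over all genes. Those that rose were Ceacam10 by 1.90 ± 0.26 (limma adjusted p = 0.0013), Cd177 by 1.88 ± 0.31 (0.00385), the stefin gene Stfa2l1 by 1.21 ± 0.30 (0.0287) and the formyl peptide receptor Fpr2 by 0.84 ± 0.24 (0.0476, with values identical to Fpr3). In each of these, every Villin-Wls cKO tumor was above every control, which held for 5.33% of all genes. The gelatinase Mmp9 fell by 1.53 ± 0.35 on the log2 scale (adjusted p = 0.0197), from 12.3 to 38.3 FPKM in controls to 3.47 to 12.3 FPKM. Only 2 genes of the list were called higher, and none lower, without Villin-Wls cKO tumors 2 and 3, and 2 were called higher without control tumor 2, 4 or 5 or Villin-Wls cKO tumor 2 or 3. The call of Mmp9 was also lost without Villin-Wls cKO tumor 3 alone, where it had a change of -1.40 (adjusted p = 0.0511), and without both tumors its change was -1.48 (0.0802).

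The 2 genes with the largest rise on this list, Ceacam10 and Cd177, did not follow S100a9 within the groups, and the cells that made them were not tested. Cd177 was at 14.3 to 49.4 FPKM in controls and 88.7 to 162 FPKM in Villin-Wls cKO tumors, and Ceacam10 at 20.1 to 49.8 and 88.2 to 199 FPKM, while Cxcr2 was at 0.845 to 2.70 and 2.41 to 5.47 FPKM. Ly6g, the antigen used to sort neutrophils, was at 41.1 to 167 and 112 to 257 FPKM. Over the 10 tumors, the correlation with S100a9 was 0.23 for Ly6g, 0.45 for Cd177 and 0.38 for Ceacam10. After the group means were removed, it was -0.22 for Ly6g, -0.21 for Cd177 and -0.53 for Ceacam10, against 0.94 for Cxcr2, 0.97 for Retnlg, 0.91 for Fpr1, 0.84 for Fpr2 and 0.73 for Stfa2l1.

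Other neutrophil genes that followed S100a9 did not pass the threshold. The changes were 0.62 ± 0.23 for Cxcr2 (limma adjusted p = 0.115), 1.18 ± 0.50 for Retnlg (0.168) and 0.47 ± 0.24 for Fpr1 (0.255). Ly6g changed by 0.85 ± 0.33 (0.139). The receptors Trem1, Trem3, Clec4d, Clec4e, Il1r2 and Hcar2, the histamine-forming enzyme Hdc, the stefin genes Stfa1 and Gm5483, Padi4 (identical to Padi1), Csf2rb, G0s2, Mxd1, Chil3 and Fcgr4 had changes between -0.37 and 0.96 that also did not pass. Mmp8 was below the filter, at 0.149 to 0.588 FPKM in controls and 0.345 to 1.32 FPKM in Villin-Wls cKO tumors. The genes for the primary granule enzymes Mpo and Elane and for Camp and Ngp had no entry among the gene names, so they could not be analysed.

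**Figure D4:**
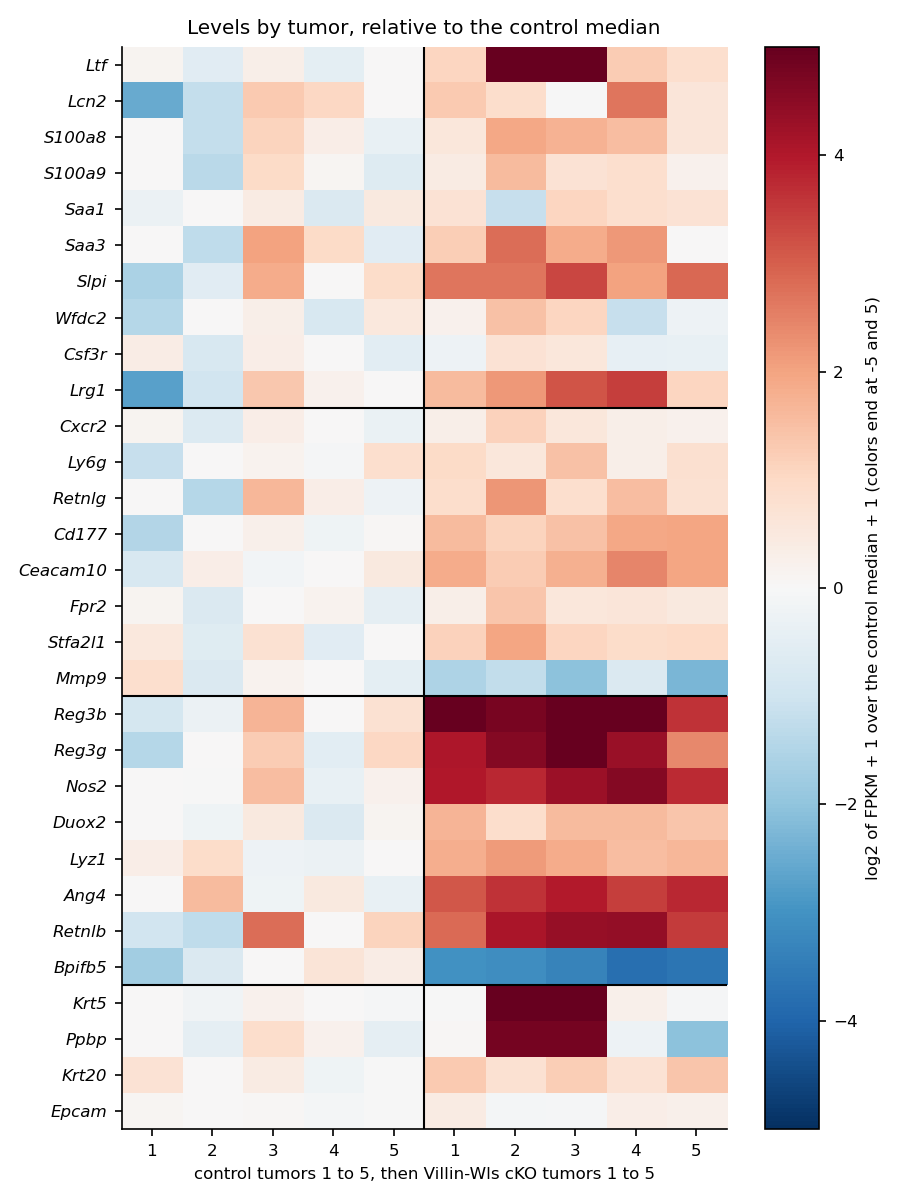
Log2 of FPKM + 1 relative to the control median + 1 for each tumor (columns) and gene (rows), with the 10 genes on top, then neutrophil genes, secreted or induced epithelial genes, and epithelial keratins with Ppbp and Epcam; colors end at -5 and 5. Krt5 and Ppbp were high in Villin-Wls cKO tumors 2 and 3 and Ltf was highest there, while Reg3b, Reg3g, Nos2 and Ang4 were high in all 5 Villin-Wls cKO tumors.

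On a list for the IL-17 and IL-22 response of gut epithelium, 10 of 22 tested genes besides the members rose (45.5%) and none fell. Over all genes, 6.12% were called higher and 4.75% lower. The list holds receptor subunits of these cytokines, such as Il17rc, beside genes that they are known to induce. Of its 27 tested genes, members included, 27 had a positive change. The C-type lectins Reg3b and Reg3g, which bind bacteria, rose by 5.65 ± 0.84 and 4.09 ± 0.62 (limma adjusted p = 0.00223 and 0.00248), from at most 7.57 and 65.6 FPKM in controls to at least 31.1 and 143 FPKM. The nitric oxide synthase Nos2 rose by 3.80 ± 0.33 (6.67e-05), the NADPH oxidase genes Nox1 by 2.54 ± 0.52 (0.0117) and Duox2 by 1.49 ± 0.22 (0.00237), and its maturation factor Duoxa2 by 1.56 ± 0.21 (0.00131). Tifa, Steap4, Zc3h12a and the receptor subunit Il17rc also rose, by 0.81 to 1.77. The chemokine Cxcl5, at 78.7 to 352 FPKM in controls and 157 to 325 FPKM in Villin-Wls cKO tumors, did not pass (0.39 ± 0.37, adjusted p = 0.569), nor did the polymeric immunoglobulin receptor Pigr (1.46 ± 0.48, 0.0798). Without Villin-Wls cKO tumors 2 and 3, 7 genes of this list were called higher.

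Among secreted epithelial antimicrobial proteins, 8 of 34 tested besides the members rose (23.5%) and 2 fell (5.88%), beside 6.12% and 4.75% of all genes. The number that fell was 4 without Villin-Wls cKO tumor 2 and 1 among genes at a mean FPKM of at least 5. Those that rose, besides Reg3b and Reg3g, were the Paneth cell ribonuclease Ang4 (3.29 ± 0.34, limma adjusted p = 0.000234), the lysozyme Lyz1 (1.66 ± 0.22, 0.00121), Retnlb of goblet cells (3.50 ± 0.70, 0.011), Reg4 (1.83 ± 0.29, 0.00341), Sprr2a3 (2.24 ± 0.37, 0.00427) and Adm (0.78 ± 0.12, 0.00334). Bpifb1 and Bpifb5, secreted proteins of the family of lipopolysaccharide-binding proteins, fell by 1.86 ± 0.25 (0.00131) and 3.09 ± 0.40 (0.00104). The most abundant, Lypd8 at 3811 to 12000 FPKM, had a change of 0.44 ± 0.28 (0.361), and the peptidoglycan-binding Pglyrp1, which neutrophils also hold, one of -0.43 ± 0.14 (0.0883). The beta-defensin Defb1 was at 8.69 and 9.89 FPKM in Villin-Wls cKO tumors 2 and 3 and at no more than 0.0781 FPKM in the others, the split seen for Ltf, and was chosen after its values were seen.

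Other acute-phase proteins numbered 11 tested besides the members, of which 2 rose, 18.2% beside 6.12% of all genes. These were complement C3 by 1.67 ± 0.36 (limma adjusted p = 0.0157) and factor B (Cfb, identical to C2 and Gm20547) by 1.20 ± 0.16 (0.00109). With the members the list held 3 that rose, and 5 without control tumor 3, after rescaling to an equal FPKM sum or with tumor quality weights. All 11 had a positive change, and haptoglobin (Hp, 1.86 ± 0.68, 0.115) and the interleukin-1 receptor antagonist Il1rn (0.45 ± 0.15, 0.0793) did not pass. In the hepatocyte list 0 of 4 genes were called by limma. Albumin (Alb) was at 3.95 to 441 FPKM in controls and 6.72 to 46.6 FPKM in Villin-Wls cKO tumors, and 1 of the 4, Trf, had an unadjusted p under 0.05.

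Genes of the members' families and partners moved in both directions, and over all genes 6.12% were called higher and 4.75% lower. On the S100 family list 3 of 12 besides the members rose, S100a10 (0.52 ± 0.12), S100a11 (0.59 ± 0.13) and S100a13 (0.42 ± 0.11). The 1 that fell, by 0.60 ± 0.15, was S100pbp, which encodes a binding protein and not an S100 protein. S100a6 was the most abundant, at 5980 to 11522 FPKM, with a change of -0.28 ± 0.18 (limma adjusted p = 0.361). Among 6 other WAP genes Wfdc18 (1.44 ± 0.31) and Wfikkn2 (0.69 ± 0.16) rose and Wfdc15b fell by 0.88 ± 0.23. Of 5 other lipocalins and transferrins 1 rose, the retinol carrier Rbp4 by 1.72 ± 0.25. Of 18 genes of metal and iron handling 3 rose, the ferrireductase Steap4, the zinc transporter Slc30a7 (0.49 ± 0.10) and Bdh2 (1.91 ± 0.22), while ferritin heavy chain Fth1, at 2113 to 2962 FPKM, had a change of 0.17 ± 0.12 (adjusted p = 0.428).

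Among 20 receptors and binding partners of the member proteins besides Csf3r, 3 rose (15%) and 1 fell (5%), beside 6.12% and 4.75% of all genes. Those that rose were Fpr2, a receptor for serum amyloid A, Tlr4 (0.55 ± 0.13), a receptor for calprotectin, and its coreceptor Cd14 (0.67 ± 0.18). Tgfbr1, which LRG1 is known to engage, fell by 0.35 ± 0.09. Among 17 growth and recruitment factors of neutrophils 1 rose (5.88%, near the share over all genes), Il1a by 0.90 ± 0.26 (limma adjusted p = 0.0492). The median change of these 17 was 0.14. Il1b changed by 0.10 ± 0.42 (0.917). The 10 granule and cytosol genes besides the members held 1 that rose, Cd177, and 1 that fell, Mmp9, and the lysozyme Lyz2, shared with macrophages, was at 179 to 602 FPKM in controls and 170 to 380 FPKM in Villin-Wls cKO tumors (-0.19 ± 0.31, 0.766).

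**Figure D5:**
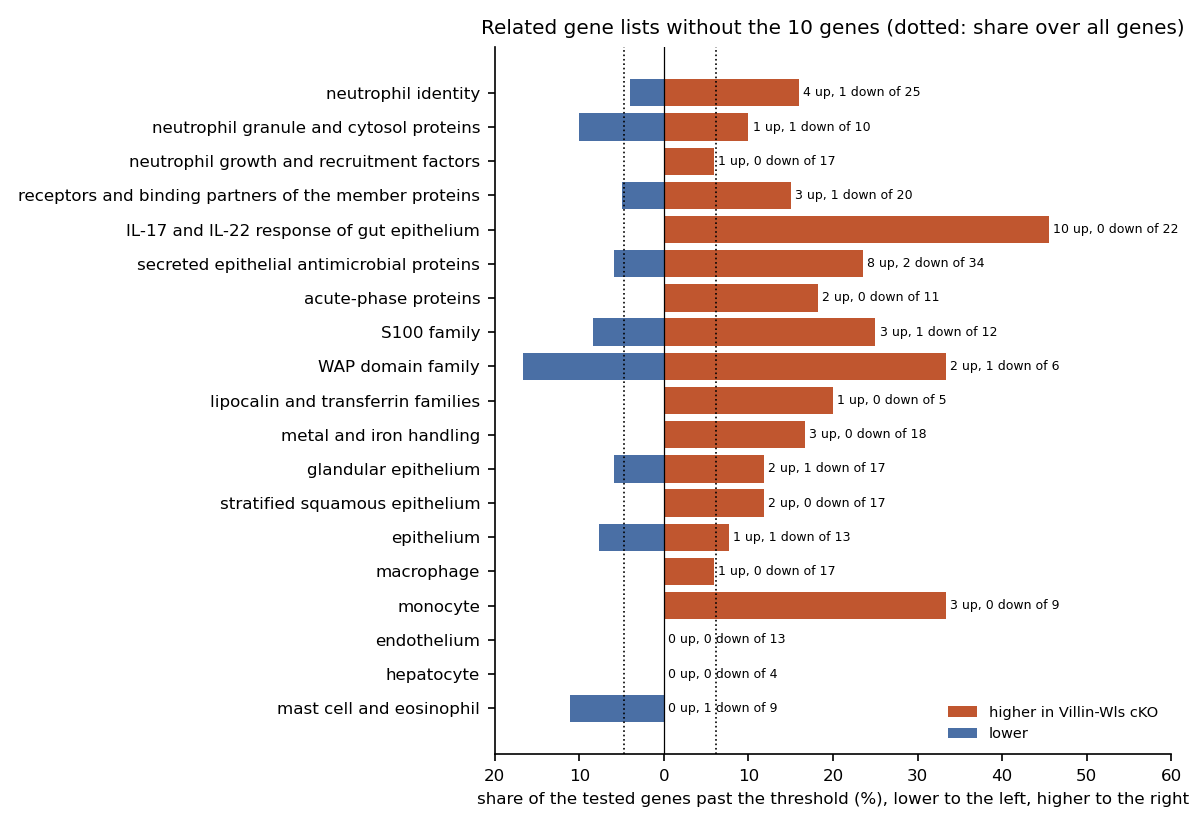
Share of tested genes (%) past the threshold in 19 related lists with the 10 genes left out, higher in Villin-Wls cKO tumors to the right and lower to the left, with counts. Dotted lines are the shares over all genes, 6.12% higher and 4.75% lower; the list of IL-17 and IL-22 response genes reached 45.5% higher.

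Counts in the lists for the other cells of the tumors stand beside 6.12% of all genes called higher and 4.75% called lower. Of 17 glandular genes besides Ltf, 2 rose (11.8%, Muc1 and Bhlha15) and 1 fell (5.88%, Bpifb1). Among 17 stratified squamous genes 2 rose (11.8%, Sprr1a and Sfn). Among 13 epithelial genes 1 rose (7.69%, Krt20) and 1 fell (7.69%), and among 9 monocyte genes 3 rose (33.3%, Ccr2, Plac8 and F13a1). Of 17 macrophage genes 1 rose (5.88%, Cd14), and of 9 mast cell and eosinophil genes 1 fell (11.1%, Ms4a2). None of 13 endothelial genes was called by limma, with 1 at an unadjusted p under 0.05. The lists were written with earlier results of these tumors known, so that none is independent evidence.

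Summed levels of defining markers overlapped between the groups for each cell type. With the members left out, 5 neutrophil markers summed to 88.8 to 189 FPKM in controls and 151 to 279 FPKM in Villin-Wls cKO tumors, with Ly6g the highest in each tumor, and none was at 0 in any tumor. The 7 macrophage markers summed to 160 to 326 and 129 to 318 FPKM, the 7 epithelial markers to 5369 to 7563 and 6352 to 8371 FPKM, the 3 endothelial markers to 8.31 to 28.3 and 9.02 to 32.3 FPKM, the 2 hepatocyte markers to 31.4 to 450 and 20.1 to 61.3 FPKM, and 3 mast cell and eosinophil markers to 5.95 to 26.4 and 3.34 to 16.6 FPKM. The 4 squamous markers summed to 17.0 to 119 FPKM in controls and to 8.93 to 946 FPKM in Villin-Wls cKO tumors, where tumors 2 and 3 held 763 and 946 FPKM, and of these markers Krt5 and Trp63 were at 0 in some tumors. The part of these cells in the levels of the members was not tested.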

How the data were processed

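The deposited values are FPKM per gene name and tumor. Per the labels and the methods, the authors used FastQC for read quality, TopHat2 2.1.1 for mapping (GRCm38.p5) and Cufflinks 2.2.1 with Cuffdiff for quantification, without merged transcripts for values per tumor. The annotation release and the use of strand in quantification are not given in the sources used here. Of 16875 names, 2419 share all values with another name, so such genes cannot be separated. FPKM summed to 1207683 to 1533885 per tumor.

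On the log2(FPKM + 1) scale, the groups of 5 were compared without covariate by limma 3.58.1 (R 4.3.3) for the 16757 genes that averaged 0.5 FPKM or more, using an eBayes trend and Benjamini-Hochberg adjustment at 0.05. The fit was checked on simulated data. Fold changes on this scale understate the change of low genes. Exact two-sided permutation tests used log2(FPKM + 1) (Python 3.11.15, scipy 1.17.1). The members, the 19 gene lists and the genes drawn were chosen with earlier results of these data known. Text names the members, neutrophil identity genes, list genes past the threshold or most abundant, and the 5 genes nearest each member by Pearson r; 2 list genes are counted but not reported here. Positions are from GENCODE M21 (GRCm38). Same-numbered tumors do not pair (r between -0.087 and 0.162 after removing group means), and no pairing was used. Alternatives covered pseudocount, scaling, filters, variance model, weights, replicate block and tumors left out.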

Additional observations from a re-analysis of the deposited data

Results flagged for a closer look

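Saa1 in Villin-Wls cKO tumor 2, at 255 FPKM, lay far below the other 4 tumors of its group, which were at 934 to 1191 FPKM. On the log2(FPKM + 1) scale the gap to the nearest tumor was 0.842 of the group's whole range. Among the 10 genes and both groups this was the only such value, and chance alone gives about 1 in 20 groups. Dmbt1 was also low in that tumor, at 169 FPKM. The cause was not tested.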

How the results depend on the processing

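Of the 10 members, only Wfdc2 and Csf3r changed direction under any of the alternatives run. For the 9 members with a test, 22 alternatives gave an adjusted p: the side of the threshold was kept in 13 of them for Lrg1, in 19 for S100a8, in 21 each for S100a9, Saa1 and Slpi, and in all 22 for the others. With both Villin-Wls cKO tumors that hold squamous keratins left out, the change turned to -0.12 for Wfdc2 and -0.23 for Csf3r, and Slpi (2.40) and Lrg1 (2.45) no longer passed. The log2 ratio of median FPKM of Csf3r was -0.28. S100a8 passed after rescaling to an FPKM sum of 1000000 (1.40, adjusted p = 0.0472) and with tumor quality weights (1.44, 0.0495). Without each tumor in turn, the change was 1.01 to 1.59 for S100a8 (past the threshold without control tumor 3), 0.66 to 1.23 for S100a9 (likewise), 0.30 to 0.87 for Saa1 (past it without Villin-Wls cKO tumor 2) and 2.13 to 3.15 for Lrg1 (past it only without control tumor 3 or Villin-Wls cKO tumor 5). The cause was not tested, but fewer tumors were compared.

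Over all genes 1026 were higher and 796 lower, so 56.3% of calls were higher. This share was 77.1% (412 lower) after rescaling to an equal FPKM sum and 44.3% after quantile normalization. With Villin-Wls cKO tumors 2 and 3 left out, 654 were higher and 438 lower. Without each tumor in turn, 507 to 806 were lower and 698 to 1177 higher. The neutrophil identity list held 2 called higher and 0 lower without these 2 tumors, and 2 to 4 higher and 0 to 1 lower without each tumor in turn. With the replicate block, 7 acute-phase genes against 3 and 2 genes of the neutrophil list were called higher and 1627 genes in all were called, Lrg1 and Slpi among them (2.70 and 2.59), and no call of a member changed. Depth is unknown, so precision rests on the spread between 5 tumors a group.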
